A study of Mus musculus with 3 samples.

Results

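The genes described here are the 37 genes of the mouse mitochondrial genome, taken as every gene whose GENCODE M21 symbol starts with mt-, out of 55536 genes in the deposited tables. They comprise 13 mRNAs, 2 rRNAs and 22 tRNAs, and all 37 are annotated on chromosome M. RNA was sequenced from macrophages grown from the bone marrow of C57BL/6J mice and given lipid A, the lipid part of bacterial lipopolysaccharide that activates Toll-like receptor 4, at 100 ng/ml for 50 min. The RNA came from the cytosolic fraction of the cells (one label says cytoplasmic), was total RNA depleted of rRNA, and made up 3 libraries of 1 group. The labels give the 3 libraries one donor entry and separate samples, and do not say whether they came from separate animals or cultures. Sex and age are labelled as not collected. No unstimulated group and no other fraction was analysed here, so the libraries can only be set against each other, and the p-values below measure a spread between libraries that may be technical.

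The mitochondrial genome is a small circle of DNA that the organelle transcribes itself. Each strand is read as a long RNA, and tRNAs that lie between the mRNAs and rRNAs are cut out to release most of them. All its mRNAs encode subunits of oxidative phosphorylation, the chain of complexes in the inner membrane that makes most of the ATP of many cell types; the remaining subunits are encoded in the nucleus, translated in the cytosol and imported. Macrophages shift between oxidative phosphorylation and glycolysis when they are activated. Nuclear chromosomes carry old copies of mitochondrial DNA, and reads from a recent copy can look the same as reads from the organelle. In the annotation 12 mRNAs, both rRNAs and 14 tRNAs lie on the plus strand, while the minus strand holds 1 mRNA, mt-Nd6, and 8 tRNAs. No tRNA lies between mt-Atp8, mt-Atp6 and mt-Co3, or between mt-Nd4l and mt-Nd4, though each is listed as a separate gene. Of the 13 mRNAs, 7 belong to complex I, 1 to complex III, 3 to complex IV and 2 to complex V.

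The gene tables held 33044910, 36769402 and 36522216 expected counts in libraries 1, 2 and 3. All 8 macrophage markers examined, among them Lyz2 and Cd68, stood at 1 TPM (a transcript level per length, scaled to the same sum in each library) or more in each library, and none of them was called in the test used below. Among markers of other cells, Cd3e, Ly6g, Ncr1 and Hbb-bt were at 0 in every library, and the summed TPM of the list, 213 to 244, lay almost wholly on Pf4, a chemokine gene of platelets that macrophages also express. The plasmacytoid dendritic cell marker Siglech had 40, 28 and 11 counts and the endothelial marker Cdh5 21, 26 and 10; both were lowest in library 3, Siglech in the order library 1, 2, 3, and neither was called (edgeR adjusted p 0.493 and 1). Their part in the results below was not tested. Library 2 held the most of 5 nuclear RNAs tested, with Malat1 at 647, 719 and 212 TPM and Neat1 at 34.1, 74.7 and 21.8 TPM in libraries 1 to 3. The 5 small structured RNAs examined took 6.71%, 11.1% and 9.45% of the counts; 7SK (Rn7sk) and the RNase P RNA (Rpph1) were lowest in library 3, and both 7SL genes, Rn7s1 and Rn7s2, in library 1.

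Mitochondrial RNA made up 0.993% of the gene expected counts in library 1 (Wilson 95% interval 0.990 to 0.997%), 0.634% in library 2 (0.631 to 0.637%) and 0.296% in library 3 (0.294 to 0.298%). The mean was 0.641% ± 0.349 (SD, n = 3). The 3 intervals do not overlap; they cover counting error only. In bulk samples, a different mix of cells and less mitochondrial RNA per cell cannot be told apart. The RNA is that of a cytosolic fraction, and the part of the fractionation in these shares was not tested. The mRNAs followed the same order, at 0.978%, 0.631% and 0.289% of the counts. The rRNAs did not, with 0.0151% in library 1, 0.00349% in library 2 and 0.00675% in library 3. When the small structured RNAs (7SL, 7SK, RNase P and MRP RNA, snRNA, snoRNA and scaRNA) were left out of the total, the mitochondrial shares were 1.07%, 0.714% and 0.327%, again in the order library 1, 2, 3.

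Many of the mRNAs have near-identical copies in the nuclear genome, and reads of an identical pair cannot be told apart by sequence. Among annotated nuclear genes, 16 had a transcript that matched a mitochondrial gene over at least 80% of its length at 90% identity or more, and they matched 11 of the 13 mRNAs; mt-Nd1 and mt-Atp8 had no such copy. A run of 7 copies lies on the minus strand of chromosome 1, within chr1:24611535-24616197 (mm10), and 5 of these were identical to the mitochondrial gene over their matched length. Over 4140 matched bases the 7 copies differed at 2. The copies took 0.309%, 0.237% and 0.0943% of all gene counts in libraries 1 to 3, and those on chromosome 1 held 99.97%, 99.98% and 99.95% of that. They also made up 95.1%, 94.3% and 86.8% of the counts on all genes annotated as unprocessed pseudogenes. The copies are listed here as Gm28661 for mt-Co2, Gm28437 for mt-Co3, Gm10925 for mt-Atp6, Gm10222 for mt-Nd4l, Gm28438 for mt-Nd3, Gm28439 for the first 876 bases of mt-Nd4 and Gm29216 for the end of mt-Co1.

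The stretches that separate 2 of these copies from the mitochondrial genes are shown because, within the stretch that each pair shares, they hold the bases that tell it apart. Sequences are from the GENCODE M21 transcripts (mm10), in the sense of each gene, and capitals mark every base that differs within a pair. The first pair covers bases 1054 to 1106 of mt-Co1 (chrM:6381-6433, plus strand) and the first 53 bases of Gm29216 (chr1:24616145-24616197, minus strand), with 6 differing bases. Of these, A1066T, counted from 1 at the first base of mt-Co1, lies inside the aligned part, and the others lie in the first 9 bases of the copy, before it.
mt-Co1: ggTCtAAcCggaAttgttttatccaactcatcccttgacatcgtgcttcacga
Gm29216: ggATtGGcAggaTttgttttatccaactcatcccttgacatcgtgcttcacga
The second pair is the start of mt-Nd3 (chrM:9459-9501, plus strand) and of Gm28438 (chr1:24613077-24613119, minus strand). They differ by T3C, counted from the first base of mt-Nd3.
mt-Nd3: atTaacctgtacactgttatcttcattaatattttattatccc
Gm28438: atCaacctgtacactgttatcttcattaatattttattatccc

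A diverged copy on chromosome 2 shows the contrast. Bases 445 to 544 of mt-Co2 (chrM:7457-7556) are given beside the same stretch of Gm13341 (chr2:22587431-22587530, minus strand), with capitals at the 7 differing bases, and of Gm28661 (chr1:24615022-24615121, minus strand), which has no difference and hence no capitals.
mt-Co2: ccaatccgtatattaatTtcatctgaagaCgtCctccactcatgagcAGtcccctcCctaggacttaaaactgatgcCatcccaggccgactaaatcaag
Gm13341: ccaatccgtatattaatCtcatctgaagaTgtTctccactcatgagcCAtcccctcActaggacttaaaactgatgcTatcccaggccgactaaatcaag
Gm28661: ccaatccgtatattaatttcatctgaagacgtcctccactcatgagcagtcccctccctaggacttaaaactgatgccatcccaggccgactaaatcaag
Gm13341, which was 95.9% identical to mt-Co2, held 16.2, 2.04 and 2.05 counts in libraries 1 to 3, and Gm28661 held 41163, 30463 and 13628. Gm13340, the chromosome 2 copy of mt-Co1 at 97.6% identity, had at most 15.4 counts in a library. Of these 3 copies, the identical Gm28661 thus carried many counts and both diverged copies few. Identity did not always go with many counts, since Gm28439, identical to the first 876 bases of mt-Nd4, had 0 in each library.

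The deposited tables show how unsure the assignment between identical copies was. They give a posterior SD, the spread of a gene's count over the read assignments that the quantification allowed. For 10 of the 15 mRNAs and rRNAs it was under 1% of the count in each library. The other 5 were mt-Co2, mt-Atp6, mt-Co3, mt-Nd3 and mt-Nd4l, each with a copy of nearly its full length on chromosome 1. For mt-Co2 the count was 0, 665 and 236 with posterior SDs of 1260, 1452 and 894, so that its deposited level was smaller than its own uncertainty in every library.

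Complex IV, cytochrome c oxidase, passes electrons to oxygen, and its catalytic core is made of the 3 mitochondrial subunits. mt-Co1 (ENSMUSG00000064351.1, chrM:5328-6872), which encodes subunit 1, stood at 2581, 1224 and 633 TPM in libraries 1, 2 and 3, from 144860, 102510 and 42231 counts. It was the mRNA with the most counts in each library, and its level in library 1 was 3.83-fold that in library 3 by CPM (counts relative to the library total), here also scaled between libraries by TMM. The copies together took 3.68%, 5.92% and 7.65% of the summed counts of mt-Co1 and its copies. mt-Co2 (ENSMUSG00000064354.1, chrM:7013-7696), which encodes subunit 2, was listed at 0, 22.8 and 9.79 TPM. With the counts of its copies added it reached 1246, 847 and 380 CPM, and the copies' part of this sum was 100%, 97.9% and 98.3%. mt-Co3 (chrM:8607-9390), for subunit 3, was at 378, 142 and 212 TPM, lowest in library 2. With its copy added the CPM values were 1170, 909 and 392, lowest in library 3, and the copy's part was 76.8%, 84.9% and 57.0%. For both mt-Co3 and mt-Co2, then, the order of the libraries changed with the counts of the copies. For mt-Co2 nearly the whole level lay on the copies.

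Complex V, the ATP synthase, has 2 mitochondrial subunits, both of the membrane part. Their genes overlap, and the overlap is shown because reads that lie within it belong to both annotated genes. The last 63 bases of mt-Atp8 (chrM:7907-7969) follow, with the 43 bases shared with mt-Atp6 in capitals, starting at the ATG that opens mt-Atp6.
mt-Atp8: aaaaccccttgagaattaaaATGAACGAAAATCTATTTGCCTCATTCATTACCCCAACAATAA
mt-Atp8 (chrM:7766-7969) had the highest TPM of all 37 genes in each library of the first quantification, 7275, 1764 and 981, from 5565, 2370 and 1594 counts. In the second quantification mt-Atp8 was at 1398, 287 and 130 TPM and mt-Co1 at 1107, 457 and 146, so that mt-Atp8 was above mt-Co1 in library 1 and below it in libraries 2 and 3. The TPM values of the first quantification rest on effective lengths of 17.9, 21.2 and 32.8 bases for a gene of 204 bases. In CPM, mt-Atp8 stood at 168, 64.5 and 43.6. mt-Atp6 (chrM:7927-8607) was at 484, 125 and 137 TPM, or 283, 99.0 and 89.7 CPM. With its copy added it reached 988, 578 and 308 CPM, of which the copy held 71.4%, 82.9% and 70.9%.

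Complex I, NADH dehydrogenase, feeds electrons from NADH into the chain, and 7 of its subunits are mitochondrial. mt-Nd1 (chrM:2751-3707) was at 918, 436 and 220 TPM. mt-Nd2 (chrM:3914-4951) was at 338, 177 and 97.1 TPM. mt-Nd4 (chrM:10167-11544) was at 714, 321 and 180 TPM. These 3 genes, which encode membrane subunits, shared the order library 1, 2, 3, and no reads of the first quantification were given to the copies of mt-Nd2 or mt-Nd4. mt-Nd5 (chrM:11742-13565), for another membrane subunit, was at 521, 298 and 158 TPM in the same order. mt-Nd3 (chrM:9459-9806) was at 731, 162 and 140 TPM, from 3899, 1334 and 1063 counts. Its copy Gm28438 was listed at 0, 2174 and 507 counts, and the sum was 118, 95.4 and 43.0 CPM. The drop of mt-Nd3 between libraries 1 and 2 was 3.15-fold without the copy and 1.20-fold with it. mt-Nd4l (chrM:9877-10173) was at 466, 266 and 202 TPM, with 61.2%, 56.8% and 38.7% of the summed counts on its copy.

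mt-Nd4l ends inside the next gene, and its last 27 bases (chrM:10147-10173) are shown with the 7 bases it shares with mt-Nd4 in capitals.
mt-Nd4l: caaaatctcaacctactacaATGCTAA
Identical letters in 2 annotated genes, here and at mt-Atp8, are a property of the genome that holds in every library alike.

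mt-Nd6 (chrM:13552-14070) is the complex I subunit gene on the minus strand. Of the 12 mRNAs tested below, it was the only mRNA that was not highest in library 1 by CPM. It was at 476, 392 and 189 TPM, and in CPM at 179, 200 and 82.5, so that on the latter scale library 2 was highest. mt-Nd5, its neighbour on the other strand, was lower in library 2 than in library 1 by 1.26-fold. The counts of mt-Nd6 were 16.7%, 24.3% and 23.7% of those of mt-Nd5, and 18.2%, 30.2% and 26.4% of those of mt-Cytb. Library 1 was lowest in both ratios; the 2 genes overlap by 14 bases on opposite strands, and the strand setting of the counting is not given in the sources used here.

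mt-Cytb (chrM:14145-15288) encodes cytochrome b, the mitochondrial subunit of complex III, which passes electrons from ubiquinol to cytochrome c. It was at 831, 418 and 244 TPM, from 32445, 24379 and 11415 counts. Its matching nuclear gene carried no counts in the first quantification.

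**Figure D1:**
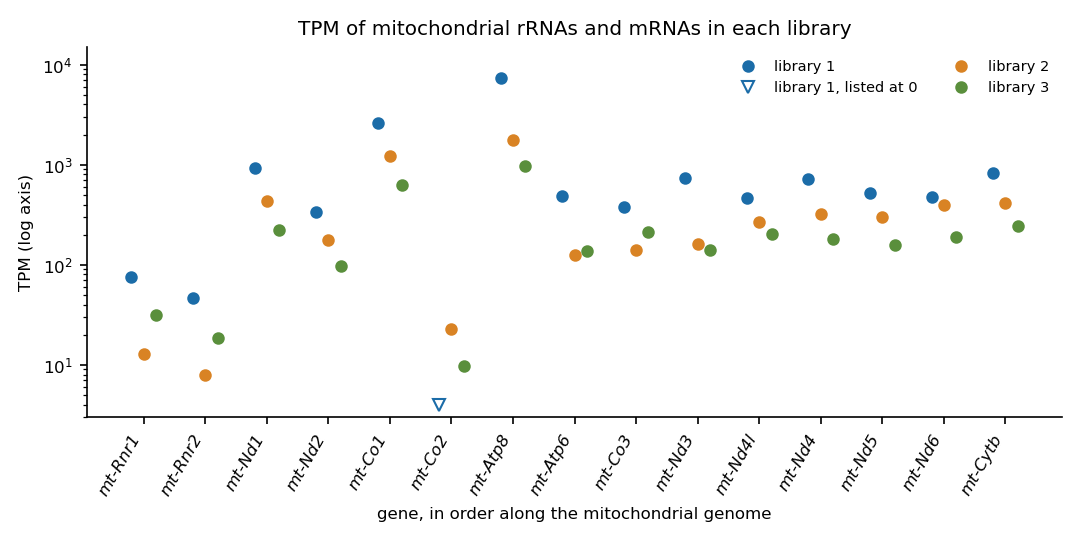
TPM on a log axis of the 2 rRNAs and 13 mRNAs in genome order, with 1 point per library; the open triangle marks mt-Co2 in library 1, which is listed at 0. By TPM, library 1 is highest for 14 of the genes, while mt-Co2 lies between 0 and 22.8 TPM. By CPM, mt-Nd6 is highest in library 2. TPM and CPM can differ between these libraries: Csf1r is at 601, 299 and 340 TPM but at 10.83, 10.80 and 10.79 log2 CPM.

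The rRNAs form the core of the mitochondrial ribosome. mt-Rnr1 (chrM:70-1024), the small subunit rRNA, had 2328, 601 and 1182 counts, or 75.1, 13.0 and 31.5 TPM. mt-Rnr2 (chrM:1094-2675), the large subunit rRNA, had 2657, 683 and 1283 counts, or 46.1, 7.93 and 18.7 TPM. Both were lowest in library 2, whereas 11 of the 12 mRNAs tested were lowest in library 3. mt-Rnr2 held 1.14, 1.14 and 1.09 times the counts of mt-Rnr1, and between libraries 1 and 2 the levels of mt-Rnr1 and mt-Rnr2 differed 4.17-fold and 4.19-fold. In the second quantification the ratio was 1.16, 1.73 and 1.39, and the differences were 3.58-fold and 2.40-fold. The rRNAs made up 1.52%, 0.551% and 2.28% of mitochondrial counts. The libraries were depleted of rRNA, and the part of that depletion in these values was not tested.

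All 22 tRNAs, which are 59 to 75 bases long, were listed at 0 counts in each library, with an effective length of 0, and no upper limit is given for genes with no effective length. The second set of deposited transcript tables gave them estimated counts. There the 8 tRNAs of the minus strand summed to 452, 281 and 246 counts, and the 14 of the plus strand to 29, 8 and 7. The minus strand thus held 94.0%, 97.2% and 97.2% of tRNA counts. All 8 minus strand tRNAs had counts in each library, against 2 of the 14 on the plus strand, and 3 of the plus strand tRNAs, mt-Tf, mt-Tv and mt-Tt, were at 0 in all 3, where 3 counts would be the most that a count of 0 allows (0.0694, 0.0669 and 0.0662 CPM). No plus strand tRNA exceeded 8 counts in a library.

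The largest tRNA counts were those of mt-Tp, the proline tRNA, at 245, 144 and 103. mt-Tc, the cysteine tRNA, had 80, 37 and 24. mt-Ts1, a serine tRNA, had 44, 29 and 55, and mt-Te, the glutamate tRNA, 19, 45 and 41. The order of the libraries thus differed between these tRNAs. Of the 4, all passed the count filter and 0 were called in the edgeR test described below, against 1.5% of all genes tested there. At that share 4 genes are too few to show that tRNAs varied less than other genes. In that test 2 of the 4, mt-Tp and mt-Tc, had an unadjusted p under 0.05. The sequences are shown as examples of the minus strand tRNAs that were counted, with mt-Tt, the plus strand threonine tRNA that lies next to mt-Tp at chrM:15289-15355 and was not.
mt-Tp (chrM:15356-15422, minus strand): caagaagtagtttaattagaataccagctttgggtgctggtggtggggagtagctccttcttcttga
mt-Tc (chrM:5192-5257, minus strand): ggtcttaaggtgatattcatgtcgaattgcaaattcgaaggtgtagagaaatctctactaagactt
mt-Ts1 (chrM:6870-6938, minus strand): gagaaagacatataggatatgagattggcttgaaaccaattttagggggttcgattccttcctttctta
mt-Te (chrM:14071-14139, minus strand): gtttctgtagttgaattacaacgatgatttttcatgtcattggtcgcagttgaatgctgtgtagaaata
mt-Tt (plus strand): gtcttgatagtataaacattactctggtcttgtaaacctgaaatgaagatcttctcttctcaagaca
The tRNAs are shorter than the size range labelled for the libraries, and whether these counts come from mature tRNA or from longer RNA was not tested.

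**Figure D2:**
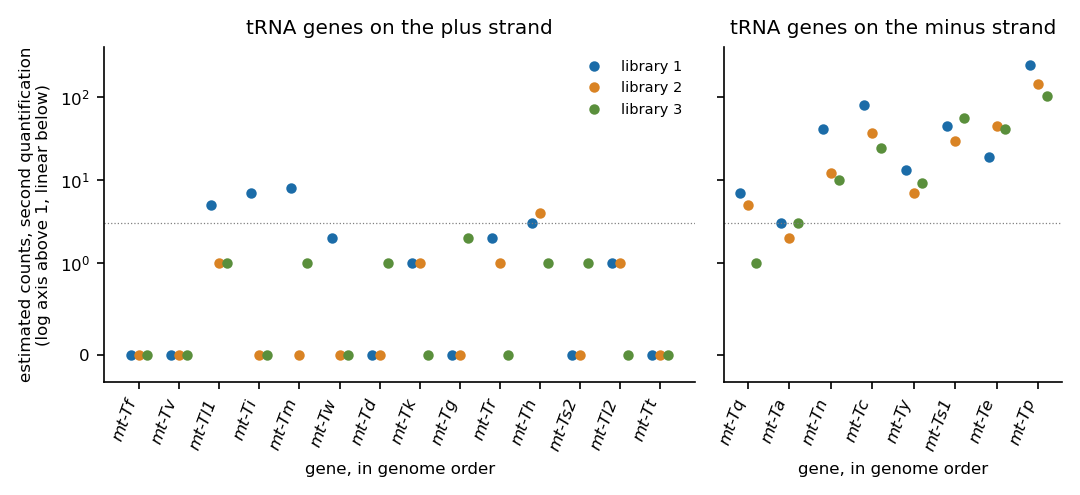
Estimated counts of the 22 tRNAs in the second quantification, by strand and in genome order, with 1 point per library, on an axis that is logarithmic above 1 and linear below; the dotted line marks 3 counts. The 8 minus strand genes reach up to 245 counts, and no plus strand gene exceeds 8.

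The levels of the mRNAs differed more between the 3 libraries than the spread of most genes. The test asked, in edgeR, whether each gene's counts scattered more over the 3 libraries than the trend of dispersion over all genes allows (goodness of fit of 1 group, Benjamini-Hochberg adjusted over all genes tested, threshold 0.05). It called 203 of 12231 genes, or 1.66%, and 59 genes, or 0.482%, were called with their highest level in library 1. Of the 37 members, 14 passed the filter on low counts, which needs counts in every library, and 23 did not, namely mt-Co2 and the 22 tRNAs. Of the 14, 13 were called and 12 of those were highest in library 1. The only tested member not called was mt-Nd4l, with an edgeR adjusted p of 0.205. In the same fit, 12 of the 14 tested members were called in the direction that 0.482% of all tested genes were called in.

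The size of the difference was alike among most mRNAs. Over the 12 tested, the log2 difference of library 1 minus library 3 had a median of 1.68 and ran from 0.70 for mt-Co3 to 2.03 for mt-Nd3, against a median of -0.0038 over all genes tested. In the edgeR test the adjusted p was 1.37e-07 for mt-Nd1, 4.86e-06 for mt-Co1, 2.34e-05 for mt-Cytb and 3.49e-05 for mt-Nd6. The rRNAs were 2.20-fold and 2.31-fold higher in library 1 than in library 3, with adjusted p of 1e-14 and 4.72e-15 in that test. Between libraries 1 and 2 the mRNAs differed by a median of 0.60 on the log2 scale, with mt-Nd6 at -0.21, higher in library 2.

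With the counts of each matching copy added to its mitochondrial gene, all 13 mRNAs passed the filter, and the libraries fell into the order 1, 2, 3 for 12 of them. The exception was mt-Nd6. In that fit 15 of 15 mRNAs and rRNAs were called, against 1.66% of all genes tested, and the log2 difference of library 1 minus library 3 ran from 1.13 for mt-Nd6 to 1.96 for mt-Atp8, with an SD over genes of 0.24 in place of 0.47. mt-Nd4l was called there, at an edgeR adjusted p of 3e-06. In the second quantification 15 of the 19 members tested were called, against 1.5% of all genes tested; the 4 others were the tRNAs. There mt-Co2 differed in the other direction, at 315, 2693 and 2002 counts.

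Library 3 carried much of this. Without it, 5 of 14 members were called (0.717% of all genes tested), namely mt-Atp6, mt-Atp8, mt-Nd3 and the 2 rRNAs, and with copies added 3 of 15 (0.701%), mt-Atp8 and the rRNAs. Without library 1, 10 of 15 were called (1.06%), and 15 of 15 with copies added (1.06%). Without library 2, 12 of 14 were called (0.738%), and 15 of 15 with copies added (0.746%). Setting libraries 1 and 2 against each other thus gave the fewest calls.

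**Figure D3:**
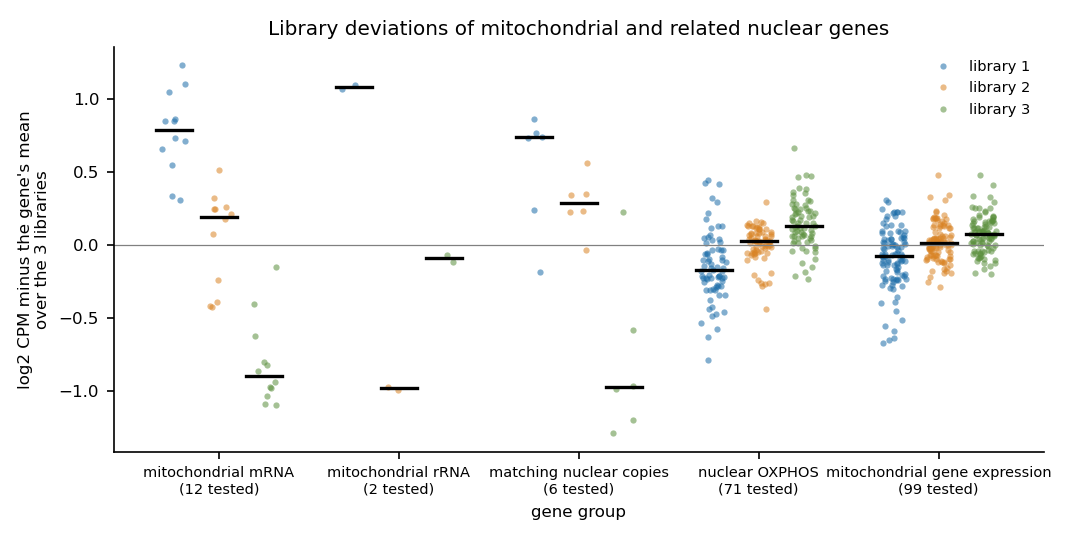
Log2 CPM of each tested gene minus its own mean over the 3 libraries, by gene group; points are genes, colours are libraries and black bars are medians. The 12 mitochondrial mRNAs lie at medians of 0.79, 0.19 and -0.90 in libraries 1 to 3, and the 71 nuclear OXPHOS genes at -0.17, 0.02 and 0.13.

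The counts given to the copies on chromosome 1 varied between libraries as well. Gm28661, Gm28437, Gm10925 and Gm10222 were identical to the mitochondrial gene over their matched length. Reads of such a pair cannot be told apart by sequence, so calls on these copies are no separate result from those of the mitochondrial genes. Of the 6 copies that passed the filter, 5 were called in the edgeR fit, against 1.66% of all genes tested, and 4 of those were highest in library 1, against 0.482%. Gm28661, the copy of mt-Co2, was higher in library 1 than in library 3 by 1.75 on the log2 scale, with an edgeR adjusted p of 9.2e-06. Gm28437, the copy of mt-Co3, was higher by 2.02, Gm10925 by 1.70 and Gm10222 by 2.06. Gm29216 was highest in library 2 and higher in library 1 than in library 3 by 0.82. The diverged copy Gm13340 was not called, at a difference of -0.41.

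**Figure D4:**
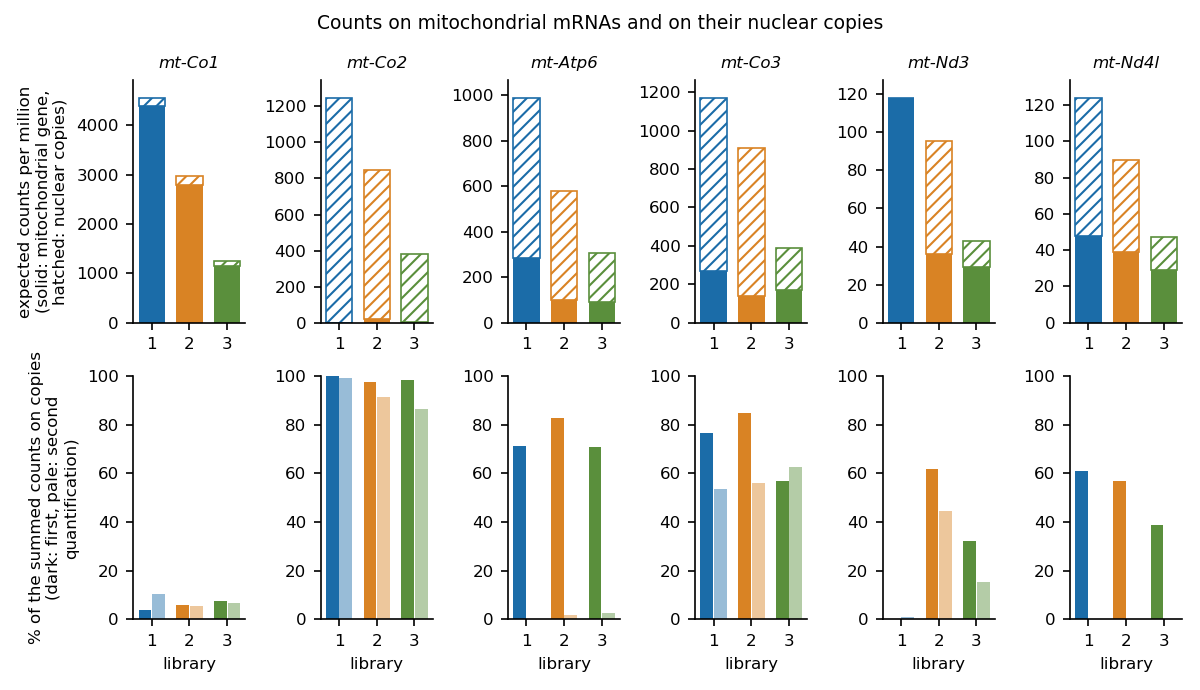
Top: CPM for 6 mitochondrial mRNAs (solid) with the counts of their matching nuclear copies stacked on top (hatched), by library. Bottom: percent of the summed counts that lie on the copies, in the first (dark) and second (pale) quantification, from 100% for mt-Co2 in library 1 to 0% for mt-Nd4l in the second.

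The split between gene and copy also depended on the quantification. The second gave the copy of mt-Atp6 at most 2.61% of the sum in any library, against 70.9 to 82.9% in the first. For mt-Nd4l it gave the copy 0% in each library. For mt-Co2 the copies held 99.3%, 91.7% and 86.5% of the sum, and for mt-Co3 53.6%, 56.2% and 62.6%. Gm28439, the copy of mt-Nd4, had 0 counts in the first and 3871, 561 and 0 in the second. For all genes together the second quantification put 0.992%, 0.640% and 0.290% of its counts on the mitochondrial genome. With copies added, the shares were 1.21%, 0.770% and 0.347%, against 1.30%, 0.871% and 0.390% in the first. The share without copies was thus alike, where several single genes with a copy were not.

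Within a library, the make-up of the mRNA pool does not depend on scaling between libraries. By TPM, mt-Atp8 made up 35.3% ± 9.60 (SD, n = 3) of the 13 mRNAs and mt-Co1 18.8% ± 2.44. mt-Nd1 followed at 6.63% ± 0.882, mt-Cytb at 6.57% ± 1.11, mt-Nd6 at 5.14% ± 1.93 and mt-Nd4 at 5.13% ± 0.533. mt-Nd4l held 4.51% ± 1.49, mt-Nd5 4.38% ± 0.960, mt-Nd3 3.86% ± 0.943, mt-Co3 3.70% ± 2.19, mt-Atp6 3.10% ± 0.921 and mt-Nd2 2.70% ± 0.488. mt-Co2 came last at 0.228% ± 0.205. The ranges over libraries overlapped for 9 of the 12 neighbouring pairs in this order. Those that did not overlap were mt-Atp8 over mt-Co1, mt-Co1 over mt-Nd1 and mt-Nd2 over mt-Co2.

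Both ends of that order changed with the way of measuring. In the second quantification mt-Co1 led at 19.2% ± 1.56 and mt-Atp8 followed at 17.5% ± 4.86, with overlapping ranges. There mt-Atp6 was at 12.3% ± 0.630, mt-Nd4l at 9.39% ± 0.311 and mt-Co2 at 1.22% ± 1.04. With the TPM of copies added, mt-Co2 was the third at 11.0% ± 0.981, after mt-Atp8 at 24.1% ± 8.33 and mt-Co1 at 16.3% ± 1.80, and mt-Nd2 was last at 1.81% ± 0.209. When counts with copies added were divided by the annotated length rather than the effective length, mt-Atp8 fell to eighth at 5.09% ± 1.37. In that measure mt-Co1 led at 21.6% ± 1.13, followed by mt-Co2 at 14.0% ± 0.132, mt-Co3 at 12.4% ± 0.933 and mt-Atp6 at 10.7% ± 0.878, none overlapping its neighbour among these 4. All 3 complex IV genes then stood above every complex I gene; mt-Nd2 was last at 2.67% ± 0.0730. Counting per annotated length was added after the values were seen.

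**Figure D5:**
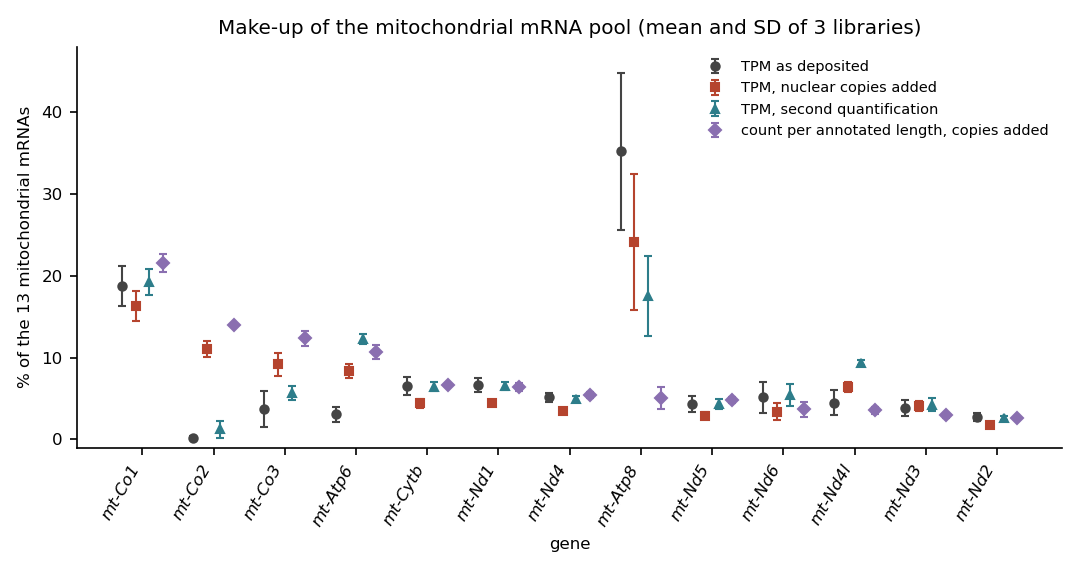
Percent of the 13 mitochondrial mRNAs held by each gene, as mean and SD over the 3 libraries, measured in 4 ways. mt-Co2 moves from 0.228% by deposited TPM to 14.0% per annotated length with copies added, and mt-Atp8 from 35.3% to 5.09%.

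The nuclear genes whose proteins join the mitochondrial subunits did not share this order. Of 71 nuclear genes of complexes I, III, IV and V, all were tested, 4 were called, against 1.66% of all genes tested, and 18 had an unadjusted p under 0.05, against 6.42% of all genes tested. Of the 71, 46 were highest in library 3, against 32.0% of all genes tested; the median log2 difference of library 1 minus library 3 was -0.29. The called genes were Ndufa1 and Ndufa2 of complex I, Uqcr10 of complex III and Atp5k of complex V. Atp5k, a small membrane subunit of ATP synthase, was at 50.0, 66.5 and 111 TPM, and its log2 difference of -1.46 had an edgeR adjusted p of 8.65e-05. Ndufa1 was at 63.6, 77.8 and 114 TPM, Ndufa2 at 36.0, 38.9 and 64.4 and Uqcr10 at 49.0, 56.0 and 85.6, with edgeR adjusted p of 0.00317, 0.0163 and 0.0169. All 4 were lowest in library 1, where most mitochondrial mRNAs were highest, and none was called without library 1 or without library 3. Effective lengths differed between libraries, for mt-Co1 at 1317, 1322 and 1347 bases of 1545 in libraries 1 to 3. CPM is not corrected for this, and its part in these differences was not tested.

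By complex, edgeR called 2 of 36 nuclear complex I genes and 1 of 9 of complex III. It called 0 of 11 of complex IV and 1 of 15 of complex V, against 1.66% of all genes tested. In the same order of complexes, 8, 3, 1 and 6 had an unadjusted edgeR p under 0.05, against 6.42% of all genes tested. The most abundant of each were Ndufa3 at 133, 55.9 and 99.6 TPM, Uqcrh at 108, 90.5 and 146, Cox4i1 at 205, 209 and 298, and Atp5b at 309, 160 and 218. The next were Uqcrb at 152, 71.1 and 103 TPM, Cox8a at 156, 131 and 182, and Atp5l at 136, 113 and 163. Of complex II, which has no mitochondrial subunit, 0 of 4 genes were called by edgeR and 0 had an unadjusted p under 0.05; Sdha stood at 51.9, 38.7 and 52.3 TPM and Sdhb at 43.9, 36.2 and 46.5.

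The genes that act on mitochondrial RNA were also examined. edgeR called 0 of 99 genes for mitochondrial transcription, RNA processing and decay, and mitoribosomal proteins, 7 had an unadjusted p under 0.05 (6.42% of all genes tested had), and 0 were called with DESeq2 size factors. Tfam, which packages mitochondrial DNA and starts its transcription, was at 7.03, 2.30 and 4.09 TPM, and Polrmt, the mitochondrial RNA polymerase, at 6.83, 2.71 and 3.99. On the CPM scale the order differed: Tfam was at 3.21, 3.26 and 3.36 log2 CPM, lowest in library 1, and Polrmt at 3.05, 2.98 and 2.95. Rexo2, an exonuclease of short RNA, was at 28.6, 18.4 and 24.6 TPM. Slirp, a partner of the mRNA stabiliser Lrpprc, was at 18.0, 16.0 and 30.6 TPM, with a log2 difference of -0.77 and an edgeR adjusted p of 0.399. Of 78 mitoribosomal protein genes, 42 were highest in library 3, against 32.0% of all genes tested, and the 2 most abundant, Mrps21 and Mrpl33, were at 92.4, 73.7 and 96.6 TPM and at 37.2, 35.4 and 40.2 TPM.

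Across all tested genes, 29 were called with the order library 1 over 2 over 3. Of them, 9 were mitochondrial genes, 4 were their nuclear copies, another was the RNase P RNA and 15 belonged to none of the lists above. The 5 of those with the largest difference were Gm20463 at 45.4, 7.92 and 3.42 TPM, AC134468.1 at 12.3, 2.79 and 1.75, Gm44170 at 9.41, 2.79 and 1.34, Gm45140 at 2.62, 1.54 and 0.41, and Gm49037 at 74.0, 18.4 and 10.1. They were annotated as antisense, pseudogene or predicted coding genes on chromosomes 17, 12, 6, 6 and 14, and their log2 differences of library 1 minus library 3 ran from 2.57 to 3.38.

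7SK and RNase P RNA were lowest in library 3, as were most mitochondrial mRNAs, by 1.96 and 1.96 on the log2 scale below library 1, with edgeR adjusted p of 3.49e-07 and 3.45e-06. The RNase MRP RNA (Rmrp) and the nuclear RNAs Malat1, Neat1 and Firre were also called and lowest in library 3. By CPM, only RNase P RNA among these 6 was highest in library 1, and 7SK and the others were highest in library 2. The other nuclear RNAs tested, Xist and Kcnq1ot1, were called too but were lowest in library 1. In libraries 1 to 3 Xist was at 5.86, 7.39 and 6.39 log2 CPM and Kcnq1ot1 at 2.13, 3.50 and 2.48. The part of these RNAs, of the fractionation and of the depletion in the library differences of mitochondrial RNA was not tested.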

How the data were processed

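The 37 members and the other gene lists were chosen with earlier results of these data known. The authors deposited, per library, expected counts with a posterior SD and TPM for genes, and a second transcript table of estimated counts and TPM, on mm10 with GENCODE M21 per the notes deposited with each library. Not given in the sources used here are the quantification tools, their settings and the strand. The 55536 mouse gene rows were used, and estimated counts of the second table were summed per gene. Expected counts were rounded and tested in edgeR 4.0.16 (R 4.3.3) with filterByExpr, TMM scaling and trended dispersion; an intercept was fitted to the 1 group and the residual deviance per gene was compared with a chi-square distribution, with Benjamini-Hochberg adjustment. The fit was tested on simulated data. Log2 CPM used a prior count of 0.5. Shares have Wilson intervals, and floors are 3 counts.

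Nuclear copies were found with BLASTN 2.17.0 (e-value 1e-05) against the 37 mitochondrial transcripts; the plan had named chromosome M itself, whose genome sequence was not used here, and had otherwise left the match out. DESeq2 1.42.0 gave alternative size factors. All mRNAs and rRNAs are named; of the other lists, the called genes and the 2 of highest mean TPM; of copies, those with a mean of 10 counts or more; and, outside the lists, the 5 called genes of order library 1, 2, 3 with the largest difference. Gm13341, Gm28439 and 4 tRNAs were named after their values were seen. A marker of other cells is not reported here.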

Additional observations from a re-analysis of the deposited data

How the results depend on the processing

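The count of 13 called mitochondrial genes lay between 12 and 15 under DESeq2 size factors, totals alone, no low count filter, common dispersion, copies added and the second quantification, and ran from 5 to 12 with a library left out, lowest without library 3. The median mRNA difference of the first minus the last library, 1.68 on the log2 scale, ran from 0.60 to 1.68 with a library left out. The 4 called nuclear OXPHOS genes became 1 under a common dispersion and 0 to 4 with a library left out. The share of mt-Co1 in the mRNA pool, 18.8%, was 16.3% with copies added, 31.3% per annotated length and 21.6% with both. Without library 1 the difference is that of library 2 minus library 3, and without library 3 that of library 1 minus library 2, so a change of sign there sets other libraries against each other. Without library 1 the sign changed for mt-Rnr1 (edgeR adjusted p 0.0018, range over left-out libraries 5.92e-12 to 0.00189), mt-Rnr2 (0.00371, range 5.48e-12 to 0.00371) and mt-Co3 (1, range 0.0613 to 1). Without library 3 it changed for mt-Nd6 (1, range 1.38e-07 to 1). mt-Co3 was not called under a common dispersion, at an edgeR adjusted p of 0.122, and mt-Nd4l was called with copies added and in the second quantification; the causes were not tested. No paired analysis was possible because there is 1 group. The mean share of counts on the mitochondrial genome stayed within 1 SD under each alternative, from 0.465% to 0.854%. With 3 libraries of 1 group and no stated origin in separate animals, library differences cannot be tied to a condition. The second quantification's fit, its share with copies added and the counts per annotated length were chosen after seeing the data.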
